A study of Mus musculus with 24 samples.

Results

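The proteasome is the barrel-shaped protease that degrades proteins tagged with ubiquitin. Its 20S core stacks rings of alpha subunits, which gate the entrance, around rings of beta subunits, which hold the cutting sites. A 19S cap recognises and unfolds substrates with a ring of ATPases (the base) and removes ubiquitin in a non-ATPase lid, while alternative activators open the core gate without ATP. Hematopoietic stem cells are known for low rates of protein synthesis and for sensitivity to misfolded protein.

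Transcripts of proteasome genes were followed by bulk RNA-seq in blood stem and progenitor cells of male C57BL/6 mice. The genes were all those in the deposited count table with symbols of the form Psma, Psmb, Psmc, Psmd or Psme followed by a number, leaving out Psmb8, Psmb9 and Psmb10, which encode the immunoproteasome's catalytic subunits. That gave 40 of 24421 genes: 16 of the 20S core (Psma and Psmb), 20 of the 19S cap (Psmc and Psmd) and 4 activators (Psme). A filter on low counts kept 39 of them among 14205 genes tested. The one that failed was Psmb11, the catalytic subunit specific to thymic epithelium, with 16 counts in all 24 libraries together and none in aged LT-HSC or aged ST-HSC.

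Cells came from bone marrow enriched for CD117 (Kit) and were sorted as lineage-negative, Sca1-positive, Kit-positive cells into 3 populations by CD150 and CD48. Long-term stem cells (LT-HSC) carried CD150 without CD48, short-term stem cells (ST-HSC) neither, and multipotent progenitors (MPP) CD48 without CD150. Aged mice were 107 weeks old and young mice 12 weeks. Each of the 6 groups (aged LT-HSC, young LT-HSC, aged ST-HSC, young ST-HSC, aged MPP and young MPP) had 4 libraries, and the labels give 4 mice per age without linking library numbers to mice. Libraries of different populations can thus come from the same mice, while the main tests below treat all libraries as independent. The labels name no transgene or treatment.

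Library totals ran from 7307151 to 12946550 counts. Levels below are CPM (reads of a gene relative to its library's TMM-adjusted total), given as mean ± SD (n = 4 libraries) or per library in the order 1 to 4. Slamf1, which encodes CD150, averaged 72.1 CPM in aged LT-HSC and 26.2 CPM in young LT-HSC and was under 1 CPM in every other group. Cd48 averaged 90.2 CPM in aged MPP and 66.4 CPM in young MPP, against at most 1.25 CPM in LT-HSC of either age. In ST-HSC, sorted without CD48, it averaged 14.4 CPM in aged and 11.5 CPM in young mice. Granulocyte genes took 0.0971% of the counts of young LT-HSC library 1, against 0.0029% to 0.00431% in the other young LT-HSC libraries. In aged ST-HSC they took 0.309%, 0.257%, 0.246% and 0.0171% of counts in libraries 1 to 4, against 0.00874% to 0.034% in young ST-HSC.

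Proteasome transcripts were highest in aged MPP and lowest in aged LT-HSC for most subunits. Of the 39 tested genes, 31 had their highest group mean in aged MPP and 27 had their lowest in aged LT-HSC. The exceptions at the top were Psma3, Psma8 and Psme4, which had their highest mean in aged LT-HSC, and 5 genes with their highest in young MPP. The range was moderate: the highest group mean was 1.21 to 3.68 times the lowest, with a median of 1.53. Group means ran LT-HSC below ST-HSC below MPP for 32 of 39 genes in aged mice and for 15 of 39 in young mice. These counts rank group means and were not made over all tested genes. In the tests between the ages given below, 5 of the 39 genes passed as lower in aged LT-HSC and 2 as higher in aged MPP. In bulk samples, fewer cells of a type and less RNA per cell cannot be told apart.

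**Figure D1:**
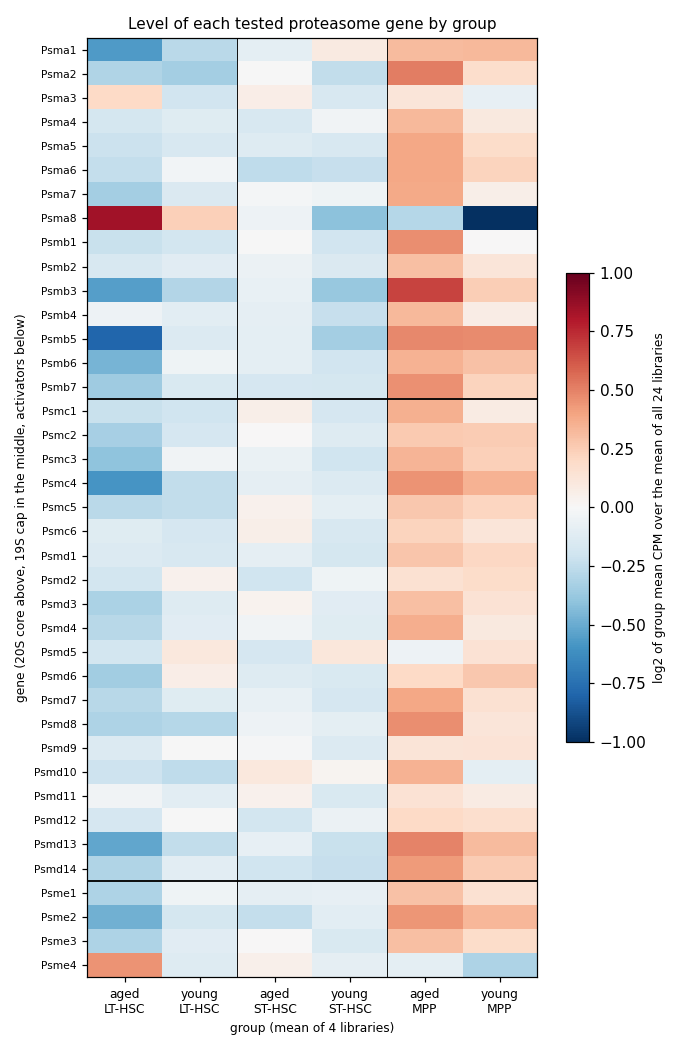
Level of the 39 tested proteasome genes (rows, 20S core above, 19S cap in the middle, activators below) in the 6 groups (columns), as log2 of the group mean CPM over the mean of all 24 libraries, with colours ending at -1 and 1. Most rows are bluest in aged LT-HSC and reddest in aged MPP, while Psme4, Psma8 and Psma3 are reddest in aged LT-HSC.

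Per kilobase of exon, mean levels over all libraries ran from 2.57 to 50.4 CPM per kb in the core (median 15.8) and from 3.18 to 38 CPM per kb in the cap (median 15.4). The lowest core gene was Psma8, the alpha subunit known from testis, and the highest was Psmb2. In the cap the lowest was Psmd10, an assembly chaperone of the base, and the highest was Psmd2, a large scaffold of the base. Activators ran from 17.8 CPM per kb for Psme4 to 113 CPM per kb for Psme1, the alpha subunit of the 11S activator.

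Promoter windows were available for 33 of the 40 genes in the RefSeq table for build GRCm38.p6, each reaching from 250 bases before to 50 bases after an annotated start. The genes without a window were Psma8, Psmb1, Psmb2, Psmb7, Psmc3, Psmd3 and Psmd7. The windows of 5 of the genes named in the results below are printed 5′ to 3′ on the gene's own strand, with matches to 3 motifs in capitals. The motifs were searched on both strands: the antioxidant response element TGACNNNGC, bound by NFE2-like factors such as NRF1, which is known to drive proteasome genes, the CCAAT box CCAAT, and the ETS core CCGGAA. Psmb5 is on the minus strand at chr14:54617946-54618245, and Psmb6 on the plus strand at chr11:70525107-70525406. Psmb3 is on the plus strand at chr11:97703184-97703483, Psmd13 on the plus strand at chr7:140882144-140882443 and Psme4 on the plus strand at chr11:30771525-30771824.
Psmb5: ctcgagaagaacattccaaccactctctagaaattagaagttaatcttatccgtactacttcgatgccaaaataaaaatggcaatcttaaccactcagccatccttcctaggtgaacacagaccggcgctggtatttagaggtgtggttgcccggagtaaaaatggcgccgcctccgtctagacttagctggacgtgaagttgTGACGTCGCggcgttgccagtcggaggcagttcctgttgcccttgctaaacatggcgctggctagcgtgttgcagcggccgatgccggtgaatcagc
Psmb6: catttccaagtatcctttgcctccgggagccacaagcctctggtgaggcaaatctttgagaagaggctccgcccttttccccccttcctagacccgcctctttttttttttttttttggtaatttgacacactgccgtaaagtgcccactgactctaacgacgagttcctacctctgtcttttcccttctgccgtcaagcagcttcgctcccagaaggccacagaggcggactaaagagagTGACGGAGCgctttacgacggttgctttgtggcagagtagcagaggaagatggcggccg
Psmb3: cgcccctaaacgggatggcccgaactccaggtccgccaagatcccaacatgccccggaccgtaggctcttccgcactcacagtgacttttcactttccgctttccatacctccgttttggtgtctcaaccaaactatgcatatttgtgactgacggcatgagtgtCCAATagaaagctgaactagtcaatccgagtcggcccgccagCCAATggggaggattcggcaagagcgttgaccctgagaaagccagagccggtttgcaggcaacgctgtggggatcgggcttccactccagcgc
Psmd13: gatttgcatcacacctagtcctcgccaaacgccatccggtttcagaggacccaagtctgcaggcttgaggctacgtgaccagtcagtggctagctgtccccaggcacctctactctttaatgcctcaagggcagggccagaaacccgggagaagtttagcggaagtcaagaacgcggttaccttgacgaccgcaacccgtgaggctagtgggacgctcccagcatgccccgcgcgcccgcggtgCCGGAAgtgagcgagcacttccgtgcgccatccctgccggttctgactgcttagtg
Psme4: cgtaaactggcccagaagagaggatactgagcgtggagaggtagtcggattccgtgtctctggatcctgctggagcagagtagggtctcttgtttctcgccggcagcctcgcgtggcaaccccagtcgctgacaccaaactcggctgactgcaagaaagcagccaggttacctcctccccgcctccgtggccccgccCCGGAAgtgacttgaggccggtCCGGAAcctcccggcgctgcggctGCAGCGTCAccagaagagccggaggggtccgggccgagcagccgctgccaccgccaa

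The windows of the chymotrypsin-like and caspase-like catalytic genes, Psmb5 and Psmb6, each held 1 antioxidant response element, beginning 47 and 9 bases before the start. The Psmb3 window held 2 CCAAT boxes and that of Psmd13 held 1 ETS core. The window of Psme4 held 2 ETS cores and, on the reverse strand, 1 antioxidant response element. The windows of Psmc4 and Psme1, also named in the results below but not printed, held none of these motifs. Over the 33 genes, 17 (51.5%) held an ETS core in a window, against 16.7% of the 27025 genes in the promoter table, expressed here or not. By subcomplex these were 4 of 12 core, 11 of 17 cap and 2 of 4 activator genes. The antioxidant response element was in 6 (18.2%), against 14.0% of all genes, and the CCAAT box in 13 (39.4%), against 41.1%. In 2 windows, those of Psmd4 and Psmd14, matches of the same motif on opposite strands overlapped. A match is a string of letters, not a bound site.

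In aged mice the proteasome genes were mostly lower in LT-HSC than in MPP. Of 39 genes, 32 were lower and 2 higher in aged LT-HSC, by the quasi-likelihood test of edgeR (adjusted p under 0.05 after Benjamini-Hochberg adjustment over all 14205 genes). The shares were 82.1% and 5.13%, against 28.5% and 28.3% of all genes tested. The lower genes comprised 13 of 15 core genes, 16 of 20 cap genes and 3 of 4 activators. The median log2 change was -0.60 over the 39 genes (-0.69 in the core, -0.56 in the cap), against 0.02 over all genes. In 28 of the 39 genes the 4 aged LT-HSC libraries all lay below the 4 aged MPP libraries, which held for 25.4% of all genes. The 5 genes that did not pass were Psma3, Psmd11 and the base chaperones Psmd5, Psmd9 and Psmd10.

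Psmc4, an ATPase of the base, had 50.4, 48.4, 41.2 and 45.7 CPM in aged LT-HSC, against 89.9, 86.8, 102 and 102 CPM in aged MPP. Psmb3, a non-catalytic beta subunit, had 32.7, 30.9, 30.1 and 25.6 CPM in aged LT-HSC, against 62.8, 72.8, 63.9 and 79.4 CPM in aged MPP. Psmd13, a lid subunit, had 36.1, 36.8, 44.9 and 37.7 CPM in aged LT-HSC, against 80.3, 74.8, 73.6 and 86.0 CPM in aged MPP. All 3 separated the populations without overlap. Their log2 changes were -1.04 ± 0.104 for Psmc4 (SE, adjusted p 3.42e-09), -1.23 ± 0.131 for Psmb3 (1.05e-08) and -1.02 ± 0.119 for Psmd13 (4.62e-08).

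The other direction held for Psme4 and Psma8. Psme4 encodes PA200, a large activator that docks on the core in the nucleus and is linked to degradation of acetylated histones. It had 195, 215, 200 and 207 CPM in aged LT-HSC, against 141, 117, 143 and 156 CPM in aged MPP, a log2 change of 0.56 (adjusted p 8.11e-06) with no overlap. Psma8 had 4.60, 18.8, 18.5 and 4.02 CPM in aged LT-HSC, against 5.23, 3.20, 7.96 and 4.61 CPM in aged MPP, so the groups overlapped and libraries 2 and 3 carried the difference. Its log2 change of 1.13 (adjusted p 0.0236) lost its call without aged LT-HSC library 2 (adjusted p 0.143), aged LT-HSC library 3 (0.127), aged MPP library 2 (0.0814) or aged MPP library 4 (0.0584), within a range of 0.00475 to 0.143 over the 8 single libraries left out. With only the groups compared in the fit it was lost too (adjusted p 0.104).

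In young mice fewer genes passed this contrast, and the test of the difference between the ages is that of the age effects given further on. Of 39 genes, 17 were lower and 1 higher in young LT-HSC than in young MPP, which is 43.6% and 2.56%, against 18.3% and 18.9% of all genes. The lower genes comprised 6 core genes, 10 cap genes and 1 activator, and the median log2 change was -0.28, against 0.002 over all genes. Psmc4 had 49.0, 66.4, 63.2 and 56.8 CPM in young LT-HSC, against 94.0, 79.1, 92.6 and 89.9 CPM in young MPP (log2 change -0.60, adjusted p 4.58e-05). For Psmd13 the values were 36.8, 47.0, 52.1 and 51.7 CPM in young LT-HSC, against 70.2, 61.3, 76.7 and 69.0 CPM in young MPP (log2 change -0.56, adjusted p 0.000432). Psma2, an alpha ring subunit, had 34.6, 37.0, 31.5 and 28.7 CPM in young LT-HSC, against 48.5, 50.4, 48.1 and 41.6 CPM in young MPP (log2 change -0.52, adjusted p 0.00116). All 3 separated the populations.

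Psma8 was the single higher gene, with 9.25, 7.02, 5.94 and 8.06 CPM in young LT-HSC, against 5.40, 2.24, 2.31 and 2.53 CPM in young MPP (log2 change 1.27, adjusted p 0.0235). This call was lost without young LT-HSC library 1 (adjusted p 0.0608) or young MPP library 2 (0.0683), 3 (0.0705) or 4 (0.064), in a range of 0.00772 to 0.0705. It was also lost in the fit without aged ST-HSC libraries 2 and 3 and young LT-HSC library 1, a set doubted from earlier results of these data (0.0666). Psme4, with 156, 132, 125 and 132 CPM in young LT-HSC against 132, 121, 116 and 114 CPM in young MPP, was not among the genes that passed.

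**Figure D2:**
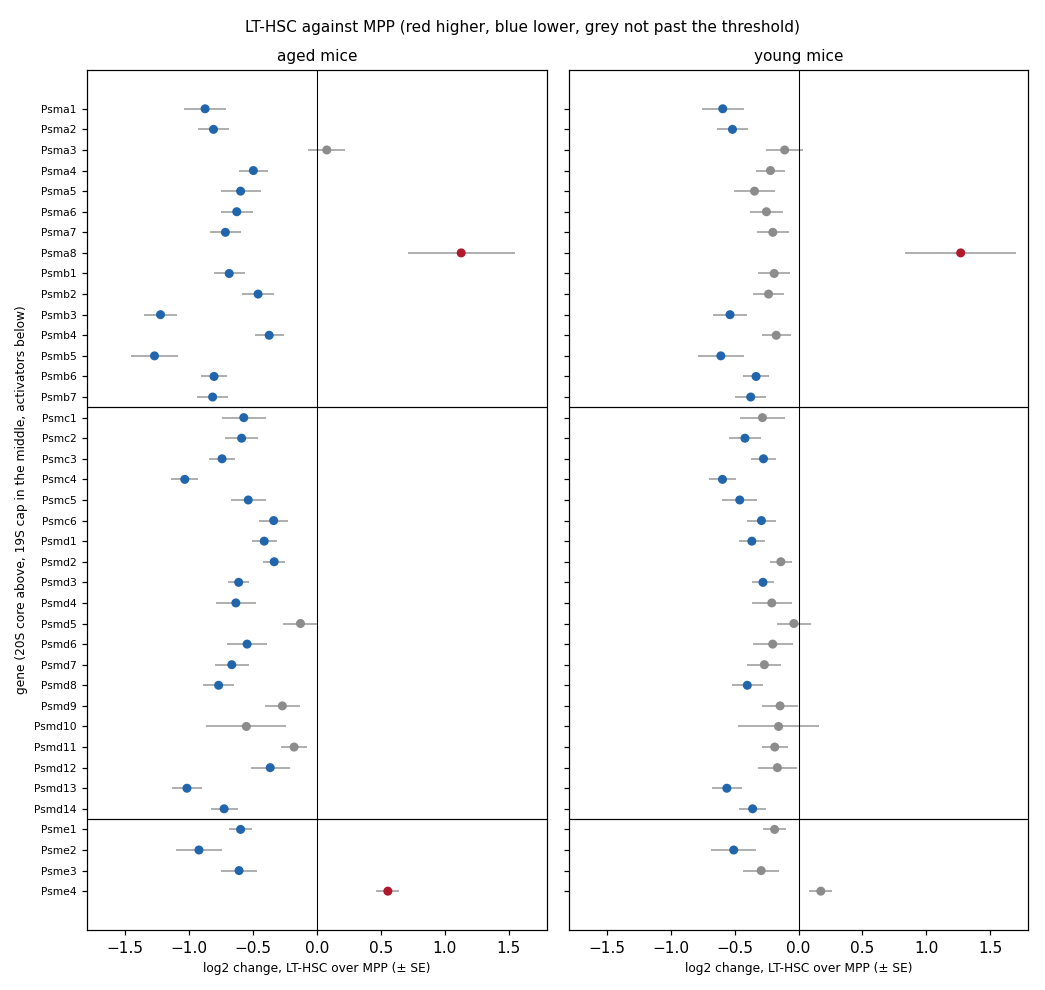
Log2 change of LT-HSC over MPP (x axis, points with SE bars) for each of the 39 tested proteasome genes (y axis), in aged mice on the left and young mice on the right, with genes past the threshold in red (higher) or blue (lower). In aged mice 32 genes are blue and 2 red, in young mice 17 are blue and 1 red.

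Cell cycle genes and markers of other cell types moved with this contrast. The 12 genes of the S phase list, none of them at 0 in any group, took 0.0615% to 0.0810% of counts in aged LT-HSC libraries and 0.286% to 0.365% in aged MPP libraries. In young mice the shares were 0.159% to 0.244% in LT-HSC and 0.342% to 0.382% in MPP. The 8 mitosis genes, none at 0 in any group, took 0.00819% to 0.0508% in aged LT-HSC and 0.137% to 0.208% in aged MPP, and 0.0293% to 0.0570% in young LT-HSC and 0.175% to 0.218% in young MPP. The 9 granulocyte genes took 0.00690% to 0.00792% in aged LT-HSC, where Ctsg was at 0, and 0.150% to 0.540% in aged MPP. In young mice their shares overlapped, at 0.00290% to 0.0971% in LT-HSC and 0.0759% to 0.325% in MPP. The 8 plasma and B cell genes took 0.00909% to 0.0117% in aged LT-HSC and 0.198% to 0.903% in aged MPP. In young mice these were 0.0108% to 0.0154% in LT-HSC and 0.0111% to 0.0416% in MPP, and Ms4a1 was at 0 in LT-HSC of both ages. The part of these lists in the proteasome differences was not tested.

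In summed level of core and of cap genes, ST-HSC lay between LT-HSC and MPP in aged mice and close to LT-HSC in young mice. In aged mice 23 of 39 genes were lower in ST-HSC than in MPP (59%, against 14.4% of all genes) and 0 higher (against 15.5%). The lower genes were 12 core genes, 9 cap genes and 2 activators. In young mice 13 were lower (33.3%, against 10.1% of all genes) and 0 higher (against 10.5%), the lower ones 6 in the core and 7 in the cap. Psmd14, the deubiquitinase of the lid, had 33.4, 32.0, 35.1 and 42.9 CPM in aged ST-HSC, against 50.9, 57.6, 55.3 and 57.3 CPM in aged MPP (log2 change -0.62, adjusted p 6.38e-05). Psmb3 had 47.4, 47.6, 35.0 and 35.6 CPM in aged ST-HSC, against the aged MPP values above (log2 change -0.75, adjusted p 7.64e-05). In young mice it had 35.4, 33.8, 30.4 and 34.2 CPM in ST-HSC, against 59.7, 41.9, 50.8 and 54.1 CPM in MPP (log2 change -0.63, adjusted p 0.00107). Neither gene overlapped between the populations. Psmc4 was lower in ST-HSC at both ages (log2 change -0.54, adjusted p 0.000231 in aged mice, and -0.49, adjusted p 0.00124 in young mice), and Psmb6 was lower in young ST-HSC than in young MPP (log2 change -0.48, adjusted p 0.00131).

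Between the stem cell populations, 10 of 39 genes were lower and 1 higher in aged LT-HSC than in aged ST-HSC, which is 25.6% and 2.56%, against 16.1% and 16.2% of all genes. The lower genes were 5 of the core and 5 of the cap. Psmd3, a lid subunit, had 99.6, 89.9, 88.5 and 88.3 CPM in aged LT-HSC, against 114, 115, 105 and 133 CPM in aged ST-HSC (log2 change -0.35, adjusted p 0.00186). Psmc4 (log2 change -0.49, adjusted p 0.000598) and Psmb5 (log2 change -0.70, adjusted p 0.00456) were lower too, and Psme4 was higher (log2 change 0.40, adjusted p 0.00102). In young mice no gene passed between LT-HSC and ST-HSC, where 12.5% of all genes did. By edgeR 1 gene had an unadjusted p under 0.05 there, and DESeq2 called 0.

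With age most proteasome genes had a lower mean in LT-HSC and a higher mean in MPP, though few of these changes passed the test. In aged against young LT-HSC, 5 of 39 genes were lower and 1 was higher (12.8% and 2.56%, against 8.87% and 9.98% of all genes). The share called was thus near that of all genes, but 30 of the 39 log2 changes were below 0, with a median of -0.16 against 0.00 over all genes. In aged against young MPP, 2 genes were higher and 0 lower, against 5.53% and 4.27% of all genes, so that 5.13% of the proteasome genes were higher. There 34 of 39 log2 changes were above 0, with a median of 0.16 against 0.00 over all genes. In total 25 of 39 genes had a lower mean in aged than young LT-HSC and a higher mean in aged than young MPP, a count not made over all genes. In ST-HSC no gene passed, where 5.79% of all genes did (2 had an unadjusted p under 0.05 by edgeR, and DESeq2 called 0). There 31 log2 changes were above 0, with a median of 0.09 against 0.01 over all genes.

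**Figure D3:**
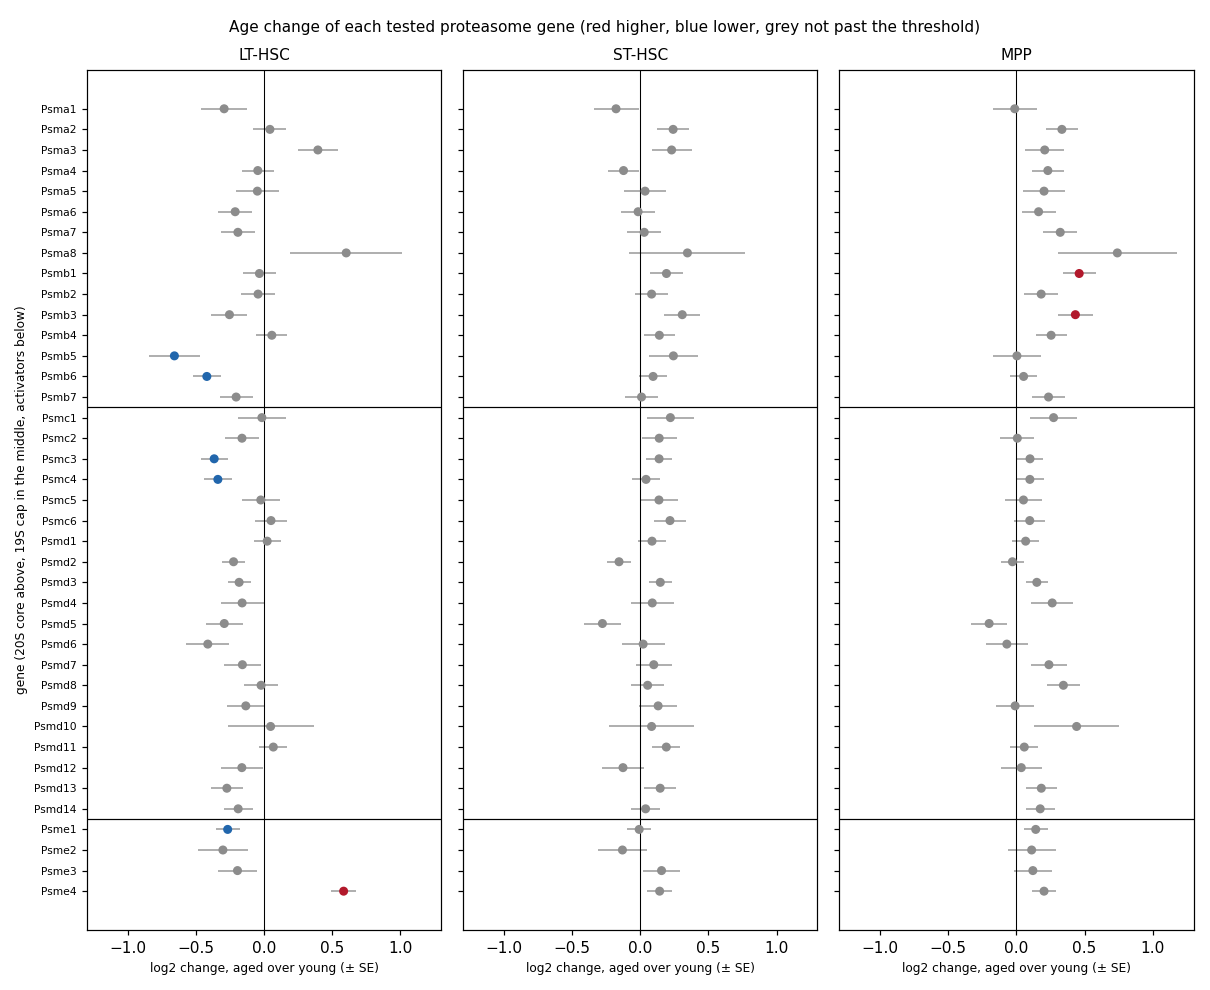
Log2 change of aged over young (x axis, points with SE bars) for each of the 39 tested proteasome genes (y axis) in LT-HSC, ST-HSC and MPP, with genes past the threshold in red (higher) or blue (lower). In LT-HSC 5 genes are blue and Psme4 is red, in ST-HSC all are grey, and in MPP Psmb1 and Psmb3 are red.

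Of the catalytic beta subunits, those of the chymotrypsin-like site (Psmb5) and the caspase-like site (Psmb6) were lower in aged LT-HSC. Psmb6 had 33.0, 37.2, 39.4 and 38.3 CPM in aged LT-HSC, against 50.9, 49.0, 51.2 and 46.9 CPM in young LT-HSC. The groups did not overlap, and the log2 change was -0.42 ± 0.104 (SE, adjusted p 0.00484). Psmb5 had 5.81, 8.74, 8.29 and 10.0 CPM in aged LT-HSC, against 9.73, 15.5, 13.9 and 12.9 CPM in young LT-HSC. Here the highest aged library exceeded the lowest young one, and the log2 change was -0.66 ± 0.185 (adjusted p 0.013). Without aged LT-HSC library 1 the Psmb5 change was -0.54 with an adjusted p of 0.0508, in a range of 0.00472 to 0.0508 over the 8 libraries left out, and with only the groups compared in the fit it was 0.0518. Psmb7, of the trypsin-like site, had 27.0, 31.5, 32.7 and 37.0 CPM in aged LT-HSC, against 31.2, 39.8, 41.4 and 35.3 CPM in young LT-HSC, and did not pass (log2 change -0.21, adjusted p 0.257).

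In the other populations none of these 3 genes passed the age comparison. Aged ST-HSC had 13.6, 11.4, 12.9 and 15.4 CPM of Psmb5, against 11.4, 8.52, 12.5 and 12.7 CPM in young ST-HSC (log2 change 0.24, adjusted p 0.502). For Psmb6 these were 53.9, 50.4, 38.3 and 47.5 CPM in aged ST-HSC, against 46.4, 47.4, 43.8 and 40.8 CPM in young ST-HSC (log2 change 0.09, adjusted p 0.674). Psmb7 had 34.5, 38.6, 31.9 and 41.0 CPM in aged ST-HSC, against 39.4, 35.1, 36.0 and 34.7 CPM in young ST-HSC (log2 change 0.01, adjusted p 0.982). All 3 overlapped between the ages. In MPP, Psmb5 had 18.6, 19.1, 17.5 and 24.2 CPM in aged cells, against 19.3, 18.1, 20.8 and 21.0 CPM in young cells (log2 change 0.00, adjusted p 0.996). Psmb6 had 58.7, 62.4, 62.9 and 74.7 CPM in aged MPP, against 60.6, 60.3, 63.8 and 64.6 CPM in young MPP (log2 change 0.05, adjusted p 0.812). Psmb7 had 52.0, 54.8, 55.2 and 63.6 CPM in aged MPP, against 54.2, 40.8, 45.4 and 51.1 CPM in young MPP (log2 change 0.24, adjusted p 0.229). Again the ages overlapped for all 3.

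Among the ATPases of the base, Psmc3 and Psmc4 were lower in aged LT-HSC. Psmc3 had 40.0, 43.0, 40.2 and 46.8 CPM in aged LT-HSC, against 58.0, 51.9, 51.7 and 57.7 CPM in young LT-HSC, with no overlap and a log2 change of -0.37 ± 0.0988 (SE, adjusted p 0.00931). Psmc4, with the LT-HSC values given above, overlapped between the ages and changed by -0.34 ± 0.105 (adjusted p 0.0224). That call was lost without aged LT-HSC library 3 (adjusted p 0.0702) or young LT-HSC library 2 (0.0759) or 3 (0.0619), in a range of 0.00595 to 0.0759. The exons of Psmc3 overlap those of Slc39a13 on the opposite strand, and the library kit does not mark strand, so reads in the overlap cannot be assigned. The same holds for Psmb7 with Nek6, Psmd13 with Sirt3 and Psme1 with Emc9, and the exons of Psmb5 overlap those of Mir686 on the same strand. In all 10 of the 40 genes overlap another gene's exons in GENCODE vM21, 9 of them on the opposite strand.

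The activators split. Psme4 rose in aged LT-HSC, to 195, 215, 200 and 207 CPM against 156, 132, 125 and 132 CPM in young LT-HSC, with no overlap and a log2 change of 0.58 ± 0.0902 (SE, adjusted p 3.55e-05). Psme1, the alpha subunit of the 11S ring, was lower, with 218, 214, 195 and 180 CPM in aged LT-HSC, against 216, 243, 271 and 242 CPM in young LT-HSC. The ages overlapped for Psme1, whose log2 change was -0.27 ± 0.0891 (adjusted p 0.0347). Its call was lost without aged LT-HSC library 3 (adjusted p 0.0656) or 4 (0.0996) or young LT-HSC library 2 (0.0545), 3 (0.117) or 4 (0.0525), in a range of 0.0165 to 0.117. Psme2, the beta subunit of the same ring, had 19.5, 37.3, 26.5 and 32.2 CPM in aged LT-HSC, against 32.1, 33.3, 43.9 and 33.3 CPM in young LT-HSC (log2 change -0.30, adjusted p 0.261). Its counts are uncertain, since the table also holds its retrogene copy Psme2b. Psme3, which forms a nuclear ring of its own, had 113, 117, 102 and 90.5 CPM in aged LT-HSC, against 95.4, 136, 142 and 109 CPM in young LT-HSC (log2 change -0.20, adjusted p 0.36). Neither Psme2 nor Psme3 passed, and both overlapped.

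Psme4 made up 37.9% ± 2.10 of the summed activator CPM in aged LT-HSC and 25.6% ± 4.06 in young LT-HSC. Its share was 28.2% ± 4.92 in aged ST-HSC and 26.5% ± 3.20 in young ST-HSC, and 21.1% ± 1.65 in aged MPP and 20.3% ± 1.02 in young MPP (SD, n = 4 each). In aged LT-HSC the libraries ran from 35.8% to 40.6%, above the highest library of any other group, at 32.9% in aged ST-HSC. This is a share of reads, and Psme4 is the longest activator transcript, so it is not a share of molecules.

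In ST-HSC and MPP none of the activators passed the age comparison. Aged ST-HSC had 147, 139, 162 and 171 CPM of Psme4, against 138, 127, 141 and 156 CPM in young ST-HSC (log2 change 0.14, adjusted p 0.406). In MPP the Psme4 change was 0.20 (adjusted p 0.165) on the values given above. Psme1 had 243, 264, 215 and 217 CPM in aged ST-HSC, against 249, 253, 231 and 210 CPM in young ST-HSC (log2 change -0.01, adjusted p 0.978). In MPP it had 286, 296, 282 and 357 CPM in aged cells, against 277, 288, 265 and 277 CPM in young cells (log2 change 0.14, adjusted p 0.346). The ages overlapped in each of these. Psme2 had 36.9, 43.0, 20.2 and 36.7 CPM in aged ST-HSC, against 34.4, 39.2, 40.4 and 36.0 CPM in young ST-HSC (log2 change -0.13, adjusted p 0.748). In MPP it had 47.2, 59.0, 49.9 and 63.4 CPM in aged cells, against 53.1, 47.3, 52.3 and 50.4 CPM in young cells (log2 change 0.11, adjusted p 0.762). Psme3 had 134, 177, 95.8 and 116 CPM in aged ST-HSC, against 122, 124, 120 and 102 CPM in young ST-HSC (log2 change 0.16, adjusted p 0.585). Both of these genes had a wider range in aged than in young ST-HSC. Aged MPP had 160, 155, 167 and 162 CPM of Psme3, against 157, 125, 156 and 154 CPM in young MPP (log2 change 0.12, adjusted p 0.658).

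**Figure D4:**
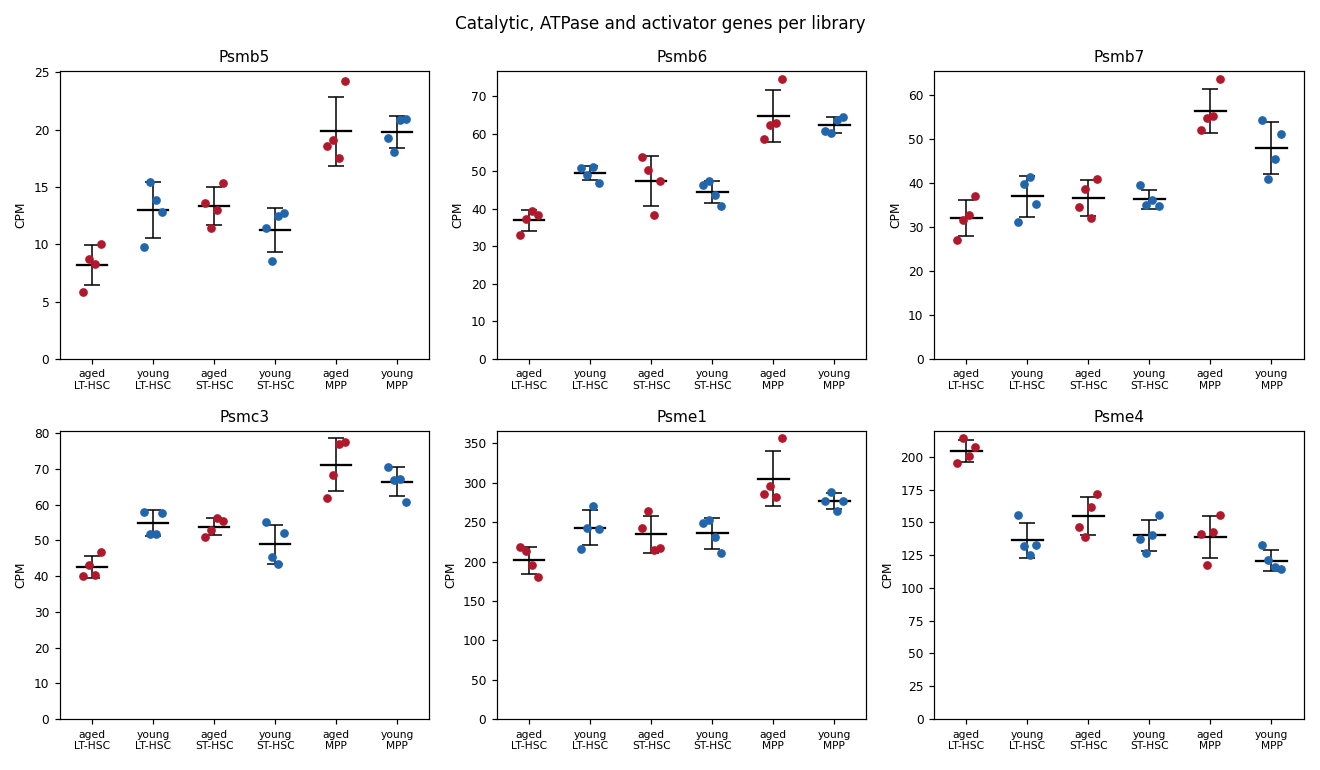
CPM per library (y axis from 0) of the catalytic genes Psmb5, Psmb6 and Psmb7, the ATPase gene Psmc3 and the activator genes Psme1 and Psme4 in the 6 groups, aged libraries in red and young in blue, with bars for the mean and SD of 4 libraries. By group mean, Psme4 stands highest in aged LT-HSC, where the other 5 genes stand lowest.

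In MPP the genes that rose with age were the non-catalytic beta subunits Psmb1 and Psmb3. Psmb1 had 83.2, 86.5, 82.5 and 109 CPM in aged MPP, against 73.2, 53.9, 71.1 and 64.1 CPM in young MPP (log2 change 0.46 ± 0.122 SE, adjusted p 0.0146). Psmb3, with the values given above, changed by 0.43 ± 0.128 (adjusted p 0.029). In both genes every aged library lay above every young one, which in MPP held for 4 of the 39 genes and for 8.83% of all genes. The other 2 were Psma2 and Psma7, alpha subunits with adjusted p 0.0719 and 0.0974, named after their values were seen. The Psmb1 call was lost without aged MPP library 4 (adjusted p 0.0813) or young MPP library 2 (0.0732), in a range of 0.0143 to 0.0813. The Psmb3 call was lost without aged MPP library 2 (0.0657) or 4 (0.112) or young MPP library 2 (0.127) or 3 (0.0686), in a range of 0.0194 to 0.127. Without aged MPP library 4 or young MPP library 2, the count of genes called was 0. It was 1 without aged MPP library 2 or young MPP library 3, and 4 without the 3 doubted libraries named above.

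Markers of plasma and B cells moved with age in MPP. The 8 genes of that list in the table, none at 0 in MPP of either age, took 0.246%, 0.358%, 0.198% and 0.903% of counts in aged MPP, against 0.0111% to 0.0416% in young MPP. Library 4, which had the most of these transcripts, was also the highest aged MPP library for Psmb1, Psmb3, Psmb5, Psmb6 and Psmb7. Granulocyte genes took 0.150% to 0.540% of counts in aged MPP and 0.0759% to 0.325% in young MPP. In LT-HSC the S phase genes moved with age, at the shares given above (0.0615% to 0.0810% in aged and 0.159% to 0.244% in young LT-HSC). The 6 T and NK cell genes also moved with age there, at 0.00696% to 0.0120% of counts in aged LT-HSC and 0.00185% to 0.00382% in young LT-HSC. Of these, Cd3e and Cd3g were at 0 in LT-HSC of both ages and Gzmb in young LT-HSC. The part of these in the proteasome changes was not tested.

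The difference between the age effects was tested itself. The age effect was more negative in LT-HSC than in MPP for 36 of 39 genes, with a median difference of -0.32 on the log2 scale. Over all genes the median was -0.004, and 49.7% of the differences were above 0. Of the 36 genes, 4 passed the test, and 0 genes passed in the other direction (10.3% lower, where 4.89% of all genes were lower and 5.05% higher). They were Psmb3 (-0.69 ± 0.184, adjusted p 0.0167), Psmc3 (log2 change -0.47, adjusted p 0.0302), Psme1 (log2 change -0.41, adjusted p 0.0361) and Psmb6 (log2 change -0.47, adjusted p 0.0363). Psmb3 kept its call without each of the 16 libraries in turn (adjusted p 0.00974 to 0.0441). Psmc3 lost it without aged LT-HSC library 3 (adjusted p 0.0519), aged MPP library 4 (0.0567) or young MPP library 4 (0.0636), and without the 3 doubted libraries (0.0544). Psme1 lost it without aged LT-HSC library 3 (0.0533) or 4 (0.0657), aged MPP library 4 (0.0729), young LT-HSC library 3 (0.0797), or young MPP library 3 (0.0584) or 4 (0.0544). Psmb6 lost it without aged LT-HSC library 1 (0.0649), aged MPP library 4 (0.0785), young LT-HSC library 1 (0.0504) or 3 (0.0611), or young MPP library 1 (0.054) or 2 (0.0708). With every library kept, Psmb6 also lost it with a block in the fit for library number (0.0513) or for age by number (0.0558). The count was 2 without aged MPP library 4, young LT-HSC library 3 or young MPP library 4, 10 without young LT-HSC library 1 and 13 without the 3 doubted libraries.

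Against ST-HSC, whose comparison shares the LT-HSC libraries, the LT-HSC age effect was lower for 3 genes and higher for 1 (7.69% and 2.56%, against 2.39% and 1.65% of all genes). Psmc3 differed by -0.51 (adjusted p 0.0374), Psmb6 by -0.51 (adjusted p 0.0439), Psmb5 by -0.90 (adjusted p 0.0463) and Psme4 by 0.44 (adjusted p 0.0469). All 4 calls sat close to the threshold. Psmc3 lost its call without aged LT-HSC library 1 or 3, young LT-HSC library 1 or 4, or young ST-HSC library 2 or 3 (adjusted p 0.0513 to 0.0672), and without the 3 doubted libraries (0.0963). Psmb6 lost its call without aged LT-HSC library 1 or 2, aged ST-HSC library 1, 2 or 4, young LT-HSC library 1, 2 or 3, or young ST-HSC library 3 or 4 (0.0517 to 0.0863). Either block, for library number (0.0611) or age by number (0.0645), lost the Psmb6 call too. Psmb5 lost its call without aged LT-HSC library 1, 2 or 3, aged ST-HSC library 1 or 4, young LT-HSC library 2, 3 or 4, or young ST-HSC library 1 or 2 (0.0538 to 0.0893). Psme4 kept its call without aged ST-HSC library 4 or young LT-HSC library 1 and lost it without any other of the 16 libraries (0.0519 to 0.128). With every library kept, Psme4 also lost its call with Rn45s and hemoglobin genes left out (0.0523), with only the groups compared in the fit (0.0638) and with no count filter (0.076). Under the last 2 of these Psmb6 (0.0681 and 0.0604) and Psmb5 (0.087 and 0.063) lost theirs too. The count of genes called was 0 without aged LT-HSC library 1. It was 1 or 2 without any of aged LT-HSC 2 or 3, aged ST-HSC 1, 2 or 4, and each library of young LT-HSC and young ST-HSC. Between ST-HSC and MPP no gene's age effect differed, where 0.465% of all genes did (1 had an unadjusted p under 0.05 by edgeR, and DESeq2 called 0).

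Core and cap transcripts were higher in MPP together, and the ratio of their sums had group means between 0.594 and 0.656. Summed core CPM was 573 ± 47.8 in aged LT-HSC and 606 ± 51.7 in young LT-HSC, 636 ± 52.9 in aged ST-HSC and 596 ± 22.4 in young ST-HSC, and 877 ± 102 in aged MPP and 741 ± 37.1 in young MPP. Summed cap CPM was 904 ± 48.1 in aged LT-HSC and 1011 ± 55.3 in young LT-HSC. It was 1040 ± 91.4 in aged ST-HSC and 1003 ± 27.8 in young ST-HSC, and 1335 ± 95.5 in aged MPP and 1238 ± 68.0 in young MPP (SD, n = 4 each). The ratio of core to cap was 0.634 ± 0.0235 in aged LT-HSC and 0.599 ± 0.0335 in young LT-HSC. It was 0.612 ± 0.0340 in aged ST-HSC and 0.594 ± 0.0145 in young ST-HSC, and 0.656 ± 0.0334 in aged MPP and 0.599 ± 0.0132 in young MPP. Each aged mean was above its young one, but in LT-HSC and ST-HSC libraries of the 2 ages overlapped. In MPP the aged libraries ran from 0.627 to 0.704 and the young from 0.586 to 0.617, without overlap. With the base chaperones Psmd5, Psmd9 and Psmd10 left out of the cap, the MPP groups nearly met. The lowest aged MPP library was then at 0.6672 and the highest young MPP library at 0.6670.

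**Figure D5:**
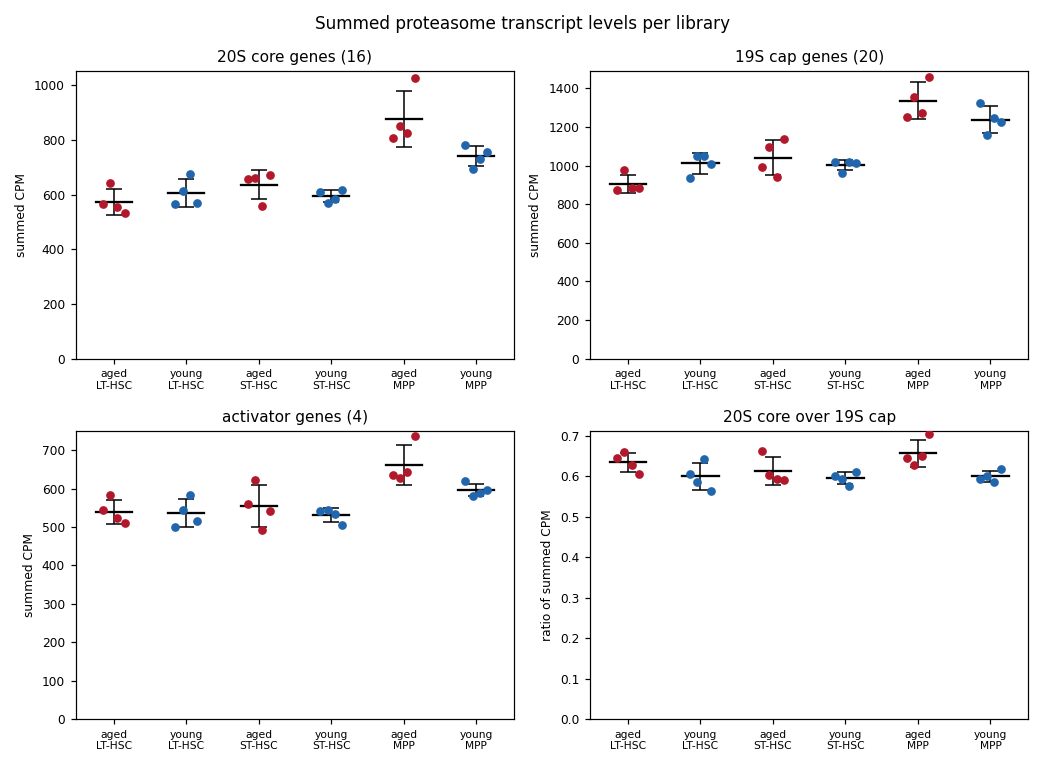
Summed CPM per library of the 16 core, 20 cap and 4 activator genes, and the ratio of core to cap (y axes from 0), in the 6 groups, aged libraries in red and young in blue, with bars for the mean and SD of 4 libraries. MPP stand highest in each sum, and the ratio lies between 0.564 and 0.704 in all 24 libraries.

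The fitted changes gave the same comparison gene by gene, with no test. With age the median log2 change was -0.05 in the core and -0.16 in the cap in LT-HSC, a difference of 0.11 that fell to 0.01 without aged LT-HSC library 2 and to 0.02 or 0.03 without aged LT-HSC library 1 or young LT-HSC library 2. In MPP the medians were 0.23 in the core and 0.10 in the cap, a difference of 0.13 that was 0.07 without aged MPP library 4. In ST-HSC the medians did not differ at 2 decimals. Between LT-HSC and MPP the core median lay below the cap median by -0.12 in aged mice, or -0.06 without aged MPP library 1. In young mice it lay above by 0.03, or -0.06 (below) without young LT-HSC library 1.

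The immunoproteasome replaces the catalytic sites of the core with Psmb8, Psmb9 and Psmb10 and is known from lymphoid and interferon-exposed cells. In aged MPP 2 of these 3 genes rose, where 5.53% of all genes did. Psmb8, whose exons overlap those of the antisense gene Gm20496, had 180, 185, 137 and 192 CPM in aged MPP, against 113, 115, 126 and 129 CPM in young MPP (log2 change 0.52, adjusted p 0.00487). Psmb9, whose exons overlap those of Tap1, had 121, 157, 119 and 141 CPM in aged MPP, against 93.6, 75.4, 109 and 107 CPM in young MPP (log2 change 0.48, adjusted p 0.0121). Neither overlapped between the ages. The constitutive counterparts Psmb5, Psmb6 and Psmb7 did not pass in MPP, as above. The plasma and B cell transcripts described above were higher in the same aged libraries, and their part was not tested. None of the 3 passed in LT-HSC or ST-HSC. These 3 genes were not followed under the alternatives or with libraries left out.

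Genes that act with the proteasome are read here against the share of all genes that passed with age, which was 9.98% higher and 8.87% lower in LT-HSC, 5.79% in either direction in ST-HSC, and 5.53% higher and 4.27% lower in MPP. Of 8 assembly factors and inhibitors, 1 passed, in LT-HSC: Akirin2, known for nuclear import of proteasomes, averaged 34.9 CPM in aged LT-HSC and 24.9 CPM in young LT-HSC (log2 change 0.49, adjusted p 0.00976). Of 7 regulators of proteasome expression or activity, 1 passed, also in LT-HSC. It was Zfand5, a zinc finger protein known to activate the proteasome, with 210 CPM in aged LT-HSC and 128 CPM in young LT-HSC (log2 change 0.71, adjusted p 0.00145). Nfe2l1, which encodes the NRF1 named with the motif above, had 115 CPM in aged LT-HSC and 101 CPM in young LT-HSC and did not pass (log2 change 0.19, adjusted p 0.0863). Among 13 shuttle factors, proteasome-bound deubiquitinases and p97 partners, the ubiquitin shuttle Ubqln4 was lower in aged than in young ST-HSC (log2 change -0.42, adjusted p 0.0214). Of 3 further cap genes, Shfm1, which encodes a small lid subunit, rose in aged MPP (125 CPM against 94.2 CPM in young MPP, log2 change 0.41, adjusted p 0.0313). The Shfm1 libraries of the 2 ages overlapped. None of the genes in these lists was followed under the alternatives or with libraries left out.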

How the data were processed

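Bulk RNA-seq was made from LT-HSC, ST-HSC and MPP of aged and young mice, 4 libraries in each of 6 groups. Per the labels' protocols, cDNA was primed with not-so-random primers and libraries were made with Nextera XT, a kit without strand marks or molecular identifiers. The submitters' processing notes name HISAT2, featureCounts, Trim Galore and build mm10. For the annotation, the tools' versions and the strand option, nothing is given in the sources used here. From the authors came deposited whole-number counts per gene symbol, unnormalized by their values. No 2 columns were identical. Spreadsheet software had turned 27 symbols into dates. Totals ran from 7307151 to 12946550 counts (median 8652939.5), and reads without molecular identifiers are not independent molecules.

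The test was that of edgeR 4.0.16 (R 4.3.3) with filterByExpr (14205 genes, 99.92% of counts), TMM factors and a robust quasi-likelihood fit with 1 mean per group over all 24 libraries (18 residual degrees of freedom, common dispersion 0.0454). The 12 comparisons were the age contrast of each population, how these contrasts differ between populations, and each pair of populations at one age. Tests are two-sided, with Benjamini-Hochberg adjustment over all tested genes and a threshold of 0.05. The fit was checked on simulated counts, drawn independently for each library, so the check cannot speak to libraries that share mice. Alternatives were DESeq2 1.42.0, its size factors, no count filter, only the groups compared, abundant RNA left out, replicate blocks, and libraries left out singly or 3 together.

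Exon lengths are unions over GENCODE vM21 (GRCm38, the assembly of mm10). Values per library are given for Psmb5 to Psmb7, Psme1 to Psme4, and called genes of smallest p (up to 6 each way per age comparison, 3 per population comparison, 4 per difference of age effects). The pathway lists give up to 2 each. The genes, lists and alternatives were chosen with earlier results of these data known. Some genes that the rule takes from the pathway lists are left out here.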

Additional observations from a re-analysis of the deposited data

Results flagged for a closer look

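Of 120 sets of 4 libraries (each sum, ratio and gene given per library, in each group), 10 had 1 library far from the other 3, by its gap to the nearest of them relative to the whole range. Chance gives about 1 in 20 such sets. In summed CPM, aged ST-HSC library 3 had 558 of core genes (the others 657 to 672), aged LT-HSC library 2 had 976 of cap genes (876 to 882), young ST-HSC library 2 had 961 of cap genes (1010 to 1020) and aged MPP library 4 had 738 of activators (627 to 642). The ratio of core to cap in aged ST-HSC library 1 was 0.663 (0.591 to 0.602). Among single genes, aged MPP library 4 had 109 CPM of Psmb1 (82.5 to 86.5), and aged LT-HSC library 1 had 99.6 CPM of Psmd3 (88.3 to 89.9). Psma8 was at 5.4 CPM in young MPP library 1 (2.24 to 2.53), Psme3 at 125 CPM in young MPP library 2 (154 to 157) and Psme2 at 43.9 CPM in young LT-HSC library 3 (32.1 to 33.3).

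The age effect differed between populations, by the test of the difference itself, in 8 cases. Between LT-HSC and MPP the log2 differences were -0.688 for Psmb3, -0.474 for Psmb6, -0.468 for Psmc3 and -0.41 for Psme1. Between LT-HSC and ST-HSC they were -0.902 for Psmb5, -0.514 for Psmb6, -0.506 for Psmc3 and 0.441 for Psme4.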

How the results depend on the processing

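The genes called in LT-HSC with age numbered 6, and 5 to 7 under the alternatives that kept every library. In MPP the count of 2 became 4 with DESeq2, 4 with only the groups compared and 4 without 3 libraries doubted from earlier results of these data (aged ST-HSC 2 and 3, young LT-HSC 1). The difference of age effects between LT-HSC and MPP called 4 genes, 8 with DESeq2, 7 with only the groups compared and 13 without those 3 libraries. That between LT-HSC and ST-HSC called 4, and 1 with no count filter or with only the groups compared. With only the groups compared, aged LT-HSC against ST-HSC called 7 in place of 11 and young ST-HSC against MPP 21 in place of 13. The core-minus-cap median between young LT-HSC and MPP was -0.057 without those 3 libraries. Leaving the base chaperones Psmd5, Psmd9 and Psmd10 out of the cap moved the ratio of core to cap to 0.692, 0.6632 and 0.702 in aged LT-HSC, ST-HSC and MPP and to 0.6573, 0.6511 and 0.648 in young LT-HSC, ST-HSC and MPP. The cause of these shifts was not tested, beyond fewer genes or libraries entering.

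With 1 library left out at a time, the counts called with age ran from 4 to 8 in LT-HSC and 0 to 3 in MPP and stayed at 0 in ST-HSC. The counts for the differences ran from 2 to 10 (LT-HSC minus MPP) and 0 to 5 (LT-HSC minus ST-HSC). Against MPP, LT-HSC counts ran from 31 to 35 in aged and 13 to 17 in young mice, and ST-HSC counts from 18 to 25 in aged and 11 to 17 in young mice. Aged LT-HSC against ST-HSC ran from 8 to 16. The core-minus-cap median ran from 0.013 to 0.147 with age in LT-HSC, -0.021 to 0.043 in ST-HSC and 0.066 to 0.161 in MPP, and from -0.175 to -0.058 (aged) and -0.057 to 0.044 (young) between LT-HSC and MPP.

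Some log2 changes of genes that passed no test turned sign. With 1 library left out, the range was -0.101 to 0.067 for Psmb5 and -0.018 to 0.098 for Psmb6 in MPP, and in ST-HSC -0.038 to 0.081 for Psmb7, -0.059 to 0.047 for Psme1, -0.244 to 0.065 for Psme2 and -0.011 to 0.292 for Psme3. In MPP, Psmb5 was also -0.002 with the replicate block and -0.007 without the 3 libraries. Among the 39 tested genes, no called change named in the results turned sign under any alternative run. Psmb8, Psmb9 and the genes of the pathway lists were not followed under the alternatives.

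Library numbers were not taken to pair the samples, but whether they do was left undecided. Deviations of same-numbered libraries of one age correlated at -0.0414 to 0.13 (median 0.0363), with 4 of 24 pairs over 0.1. For different numbers of one age the median was -0.0122, with 4 of 72 pairs over 0.1. Each library was compared with 4 numbers at its age, and 15 of 24 correlated best with their own. With the replicate block 6, 0 and 2 genes were called with age in LT-HSC, ST-HSC and MPP, and 4, 3 and 0 for the differences of age effects. With age by number as the block, added after seeing the data, the differences gave 4, 3 and 0. Psmb6 was not among those called, with adjusted p 0.0513 (number) and 0.0558 (age by number) for LT-HSC minus MPP and 0.0611 and 0.0645 for LT-HSC minus ST-HSC. Between populations the block (age by number) gave 34, 10 and 24 in aged mice and 17, 0 and 15 in young mice (LT-HSC against MPP, LT-HSC against ST-HSC, ST-HSC against MPP).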
